A study of Mus musculus with 1049 samples.

Results

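Elastic fibres give skin its recoil. They consist of a core of crosslinked elastin laid down on a scaffold of fibrillin microfibrils, to which small microfibril-associated glycoproteins bind, while fibulins and a latent TGF-beta binding protein help to place and crosslink elastin on that scaffold. In dermis these proteins are made mainly by fibroblasts, and in mice the fibre network is built largely around birth and in early life. The 10 genes described here are elastin (Eln), the fibrillins Fbn1 and Fbn2, the microfibril-associated genes Mfap2, Mfap4 and Mfap5, the fibulin family members Efemp1, Efemp2 and Fbln5, and Ltbp4. They were chosen by name, not by a threshold on their values, and all 10 were found among the 51777 genes common to the plate tables and passed the filter on low counts.

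In GRCm38 all 10 are protein-coding genes of the GENCODE M21 annotation. Eln lies on chromosome 5 (134702593 to 134747323, minus strand), Fbn1 on chromosome 2 (125300594 to 125507993, minus strand) and Fbn2 on chromosome 18 (58008623 to 58210487, minus strand). Mfap2 lies on chromosome 4 (141010418 to 141015984, plus strand), Mfap4 on chromosome 11 (61485431 to 61488900, plus strand) and Mfap5 on chromosome 6 (122505845 to 122529290, plus strand). Efemp1 lies on chromosome 11 (28853204 to 28926743, plus strand), Efemp2 on chromosome 19 (5473954 to 5482517, plus strand), Fbln5 on chromosome 12 (101746565 to 101819055, minus strand) and Ltbp4 on chromosome 7 (27305136 to 27337692, minus strand). No exon of another gene lies over theirs on the same strand, and the antisense genes Gm30003 at Eln, Gm9913 at Fbn1 and Gm26507 at Fbn2 had at most 3.81, 1.55 and 0 CPM.

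The cells were single dermal fibroblasts of C57Bl/6 mice at 3 ages, newborn (1.5 or 2.5 days), young (2 months) and old (18 months), with no other treatment or allele named. They were sorted from digested skin with antibodies to CD34, PDGFR-alpha and the lineage markers CD45, CD117, EpCam and CD31, and sequenced with Smart-seq2, a full-length method with 1 cell per well. Experiments 1 and 2 each held all 3 ages, on 5 and 4 plates, and the labels name no mice. The plates are parts of these 2 experiments, so counts of plates are a description and not counts of replicates. After filtering, 735 of 861 wells were kept. These were 249 of 256 newborn wells (97.3%), 246 of 287 young wells (85.7%) and 240 of 318 old wells (75.5%), so more wells were left out at older ages.

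Kept cells of the same age and experiment were pooled into 6 sums, with 119682449 to 195324769 reads each and n = 2 per age. Levels are given as CPM, the reads of a gene as a share of all reads after TMM scaling, and levels per length as CPM per kilobase of exon (RPKM). The p-values come from edgeR over 16684 genes, adjusted by Benjamini-Hochberg with a threshold of 0.05, and measure the spread between these sums, since nothing ties them to separate mice. All 8 fibroblast markers, among them Col1a1 and Pdgfra, had reads in every age. Markers of other cell types were low but not absent. The 7 endothelial markers summed to 23.5 and 15.0 CPM in newborn, 90.7 and 75.6 CPM in young sums, and 83.5 and 67.5 CPM in old sums, with Plvap at 5.64 to 12.1 CPM in newborn and 39.6 to 76.7 CPM in adult sums, while Cdh5, Emcn and Vwf were at 0 in all 6 sums. The 7 immune and mast cell markers summed to 0.905 and 0.716 CPM in newborn, 176 and 44.8 CPM in young sums, and 22.1 and 25.4 CPM in old sums, with Csf1r at 160 and 36.6 CPM in the young sums, while Ptprc, Cd3e and Cpa3 were at 0 in all 6. The 6 keratinocyte markers summed to 19.0 to 33.6 CPM in newborn and 43.6 to 70.9 CPM in adult sums. All 6 had reads in newborn, while Krt5, Krt1, Epcam and Cdh1 were at 0 in young and old sums. Krt14 was at 0 in young sums too, so Krt10 alone made up the young value. The lists for Schwann cells and melanocytes, adipocytes, and cartilage and muscle summed to at most 9.36 CPM. At 100000 reads per cell, cells had a median of 1795 and 2213 detected genes in newborn samples, 1643.5 and 2041 in young samples and 1501.5 and 1719 in old samples (experiments 1 and 2), so detection itself was lower in older cells and in experiment 1.

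Of the 10 genes, Efemp1 was higher and Mfap2 lower in young than in newborn sums, and the same was so of old against newborn sums. In both comparisons that was 1 member past the threshold in each direction, while 0.719% of all genes tested were higher and 0.0599% lower in young than in newborn sums, and 0.797% higher and 0.138% lower in old than in newborn sums. Old against young gave 0 members in either direction, as it gave 0.0% of all genes higher and 0.0% lower by edgeR. At an unadjusted p under 0.05, 810 genes differed between old and young sums, and DESeq2 put 398 genes higher and 649 lower (6.28% of genes in either direction), among them lower Eln, Fbn1 and Fbn2. For Fbn2 this rested on 248 reads in 5 young cells and 4 reads in 2 old cells. The young sum of experiment 2 had 0.0299 CPM of Fbn2, close to 0.0271 CPM in the old sum of experiment 1. DESeq2 called 5 members in young against newborn, where it called 14.1% of all genes, and 7 in old against newborn, where it called 17.0%. With limma on the mean log2 value per cell 5 members passed in each of these, where 19.6% and 26.3% of all genes did, and 0 in old against young, where 0.115% did. The promoters of Mfap2 and Efemp1, the genes that passed the test, are shown with that of Fbln5, which did not pass it in any comparison. Each line is the 200 bases before the start that RefSeq lists nearest to the gene's annotated 5′ end (GRCm38.p6), and the capitals mark matches to 5 short motifs on either strand.
Mfap2, chr4:141010224-141010423, plus strand: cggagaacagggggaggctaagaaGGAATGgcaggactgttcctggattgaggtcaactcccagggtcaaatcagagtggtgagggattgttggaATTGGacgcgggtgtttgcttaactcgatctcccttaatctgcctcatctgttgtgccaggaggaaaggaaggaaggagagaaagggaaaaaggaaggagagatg
Efemp1, chr11:28853005-28853204, plus strand: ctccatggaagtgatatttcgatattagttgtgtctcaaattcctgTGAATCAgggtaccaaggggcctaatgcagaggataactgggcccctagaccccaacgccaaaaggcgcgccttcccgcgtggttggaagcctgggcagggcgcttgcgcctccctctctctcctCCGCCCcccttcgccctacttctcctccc
Fbln5, chr12:101819120-101819319, minus strand: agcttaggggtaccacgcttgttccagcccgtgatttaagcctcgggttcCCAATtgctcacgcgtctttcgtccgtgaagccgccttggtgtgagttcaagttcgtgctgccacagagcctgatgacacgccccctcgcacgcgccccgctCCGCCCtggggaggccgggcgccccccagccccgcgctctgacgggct

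The motifs searched were the TATA box (TATAAA), the GC box (GGGCGG), the CCAAT box (CCAAT), the AP-1 motif (TGANTCA) and the TEAD motif (GGAATG), and in these 3 windows no matches overlapped. Among 32851 promoter windows of the same length, the share with a match was 9.96% for the TATA box, 31.0% for the GC box, 29.3% for the CCAAT box, 5.48% for AP-1 and 10.1% for TEAD. The Mfap2 window held 1 TEAD and 1 CCAAT match, the Efemp1 window 1 AP-1 and 1 GC box match, and the Fbln5 window 1 CCAAT and 1 GC box match. No TATA box match lay in any of the 3. GC content was 51.0% for Mfap2, 58.5% for Efemp1 and 66.5% for Fbln5, against a median of 53.0% over all windows. These matches describe letters and were not tested for binding.

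**Figure D1:**
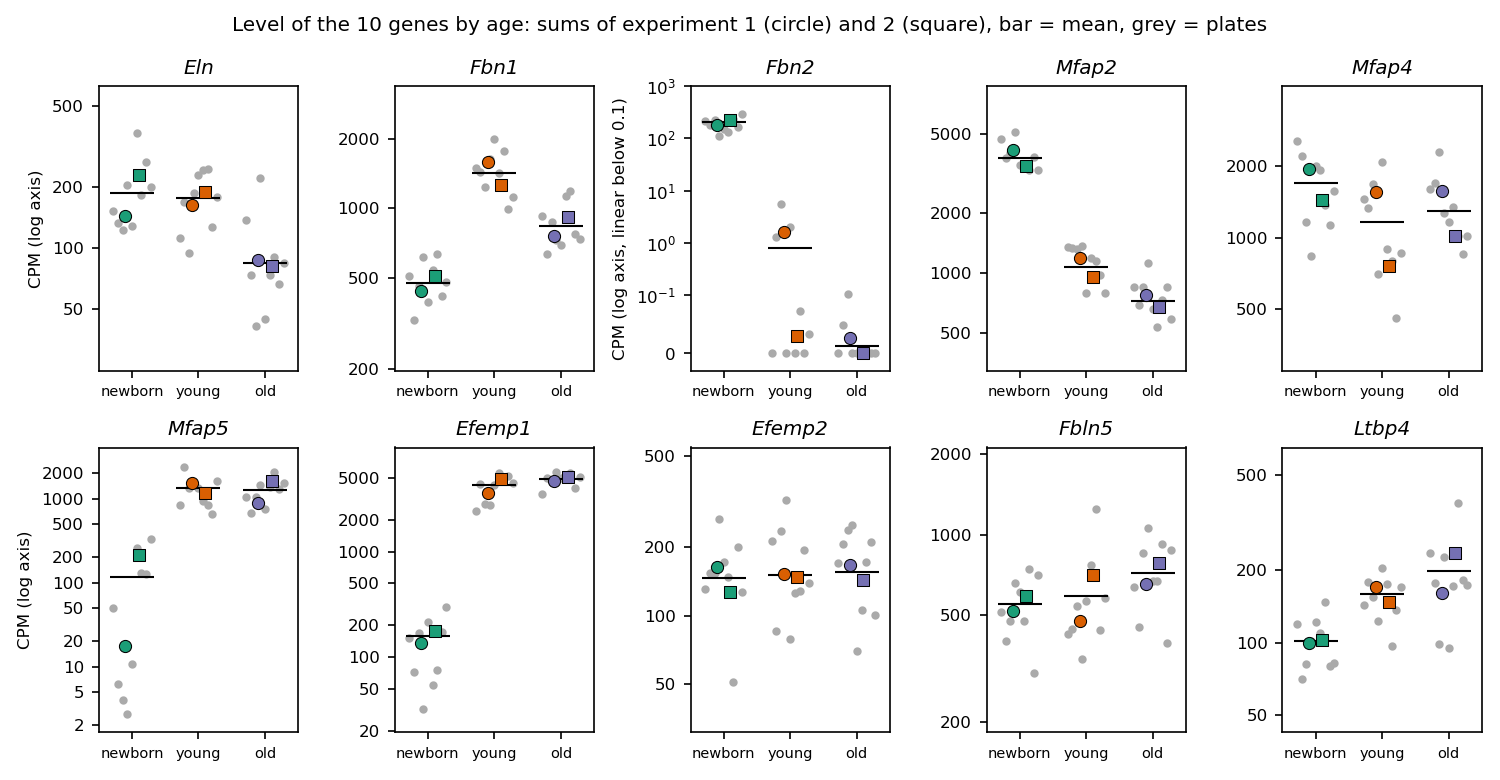
Level of each of the 10 genes (CPM, logarithmic axis, linear below 0.1 for Fbn2) in the sums of experiment 1 (circles) and experiment 2 (squares) at each age, with the mean of both as a bar and the plates as grey points. Efemp1 sits at 137 and 178 CPM in newborn and at 3566 CPM or more in adult sums, while Mfap2 sits at 3446 CPM or more in newborn and at 1194 CPM or less in adult sums.

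Fibrillins form the microfibril itself. Fbn2, the fibrillin best known from development, had 181 and 228 CPM in the newborn sums of experiments 1 and 2, 1.60 and 0.0299 CPM in the young sums, and 0.0271 and 0 CPM in the old sums. The groups did not overlap. Such gaps between 2 and 2 sums were common. Of 16684 genes tested, 3688 lay above and 4189 below without overlap in young against newborn sums. In old against newborn the counts were 3609 and 4281, and in old against young 2497 and 2660. The adult Fbn2 values rested on 248 reads in 5 young cells and 4 reads in 2 old cells. Of the young reads, 244 were in experiment 1. The mean level was 0.814 ± 1.11 CPM in young and 205 ± 32.6 CPM in newborn sums (SD, n = 2 each), 251-fold lower in young. The edgeR test was not passed, with adjusted p = 0.235 for young against newborn and 0.126 for old against newborn. Fbn2 was lower in 9 of 9 plates each time. Over the 6951 genes read in at least 10% of cells, edgeR gave adjusted p = 0.0340 for old against newborn. DESeq2 on the same sums gave adjusted p = 4.45e-05 for young and 2.01e-12 for old against newborn, and limma on the mean log2 value per cell 1.31e-05 and 1.02e-05. The edgeR fit with age as the only term, over all genes tested, had 3 residual degrees of freedom. Its common biological coefficient of variation was 1.13. Both values are given for that fit only, and not for the alternative edgeR fits, DESeq2 or limma.

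Fbn2 reads were found in a part of the newborn cells. At 100000 reads per cell, 50.0% of newborn cells of experiment 1 (exact binomial 95% interval 42.0 to 58.0%) and 53.8% of experiment 2 (43.1 to 64.4%) had a read. In young cells the share was 2.11% and 0%, and in old cells 0% and 0%, which in 114 old cells of experiment 2 allows up to 3.18%. These intervals cover counting error only. Over all reads of each cell, newborn cells with a read had a median of 276 and 243 CPM, and the 10% of newborn cells with the most Fbn2 held 52.1% and 59.9% of its reads.

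Fbn1, the main fibrillin of adult tissue, had 437 and 510 CPM in newborn, 1596 and 1259 CPM in young sums, and 757 and 916 CPM in old sums. It was thus highest in young sums, with no overlap between any of the 3 ages. Young was above newborn 3.01-fold (log2 fold change 1.59 ± 0.23 SE, adjusted p = 0.0756 by edgeR) and in 9 of 9 plates. Old sums were 1.71-fold below young sums (log2 fold change -0.77 ± 0.23, adjusted p = 0.906) and lower in 9 of 9 plates. Neither difference passed the edgeR test in the fit over all 16684 genes. Young against newborn passed it over the 6951 genes read in at least 10% of cells (adjusted p = 0.0128) and with cells thinned to 100000 reads (adjusted p = 0.0356). DESeq2 gave adjusted p = 8.04e-11 for young against newborn and 0.0101 for old against young. The share of cells with a Fbn1 read followed the level, at 57.6 and 65.9% in newborn, 86.6 and 93.3% in young cells, and 65.1 and 77.2% in old cells.

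Fbn2 made up 27.6 and 29.0% of the fibrillin level per length (RPKM of Fbn2 over Fbn1 plus Fbn2) in newborn sums, 0.0918 and 0.00218% in young sums and 0.00328 and 0% in old sums. Of 79 newborn cells with Fbn2 reads in experiment 1, 48 also had Fbn1 reads, when 91 of all 158 newborn cells had them. In experiment 2 it was 36 of 49, when 60 of all 91 had them.

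**Figure D2:**
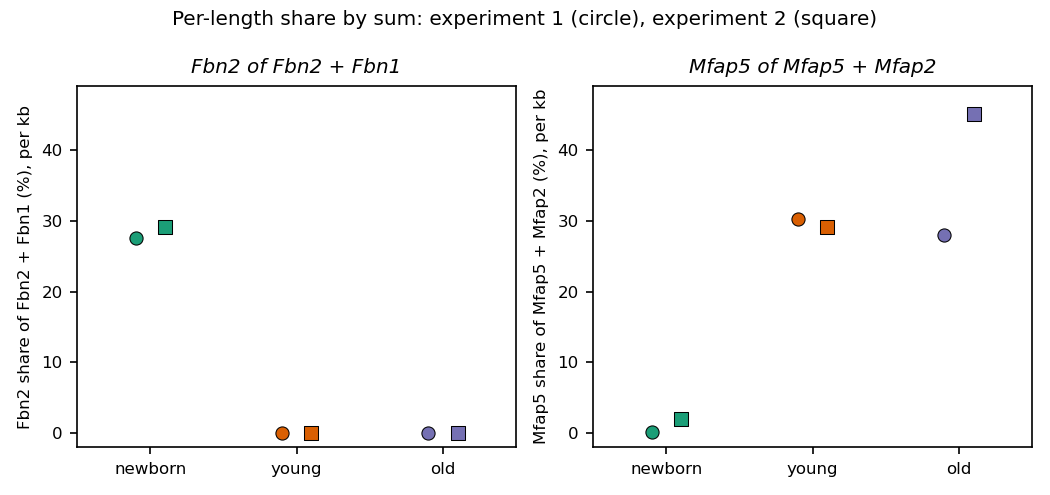
Share of the per-length level that Fbn2 takes of both fibrillins (left) and Mfap5 takes of Mfap2 plus Mfap5 (right), in percent, for the sums of experiment 1 (circles) and 2 (squares) at each age. Fbn2 takes 27.6 and 29.0% in newborn and under 0.1% in adult sums, and Mfap5 takes 0.144 and 2.05% in newborn and 28% or more in adult sums.

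Mfap2 and Mfap5 encode MAGP-1 and MAGP-2, small glycoproteins that bind fibrillin. Mfap2 had 4131 and 3446 CPM in newborn, 1194 and 959 CPM in young sums, and 775 and 679 CPM in old sums, in 3 groups that did not overlap. It fell 3.52-fold in young against newborn (log2 fold change -1.81 ± 0.21, adjusted p = 0.0464) and 5.21-fold in old against newborn (log2 fold change -2.38 ± 0.22, adjusted p = 0.0233), each in 9 of 9 plates. The fit with the experiment as a replicate block left old against newborn past the threshold (adjusted p = 0.0387) and put young against newborn just outside it (adjusted p = 0.0505). Leaving out any 1 of the 6 sums, which leaves an age with 1 sum assumed to vary like the others, gave adjusted p = 0.111 to 0.247 for young and 0.0753 to 0.184 for old, with log2 fold changes of -1.98 to -1.66 and -2.50 to -2.25.

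Nearly every newborn cell had Mfap2 reads, at 98.7 and 98.9% of cells, against 85.9 and 92.3% of young cells, and 80.2 and 82.5% of old cells. The median cell had 4022 and 3192 CPM in newborn, 990 and 908 CPM in young cells, and 676 and 553 CPM in old cells, so the middle of the distribution moved with the sums. Old sums were also below young sums, at 727 ± 67.3 CPM in old and 1077 ± 166 CPM in young (SD, n = 2 each) and lower in 9 of 9 plates. That difference did not pass the test (log2 fold change -0.57 ± 0.21, adjusted p = 0.910). Of the other cell types that could enter the sort, the 9 smooth muscle and pericyte markers summed to 64.5 and 176 CPM in newborn, 6.74 and 12 CPM in young sums, and 7.55 and 21.3 CPM in old sums. In newborn sums Acta2 had 14.7 and 94.6 CPM and Tagln 33.2 and 51.1 CPM. Des went the other way, with 0 and 2.92 CPM in newborn and 1.02 and 11.4 CPM in young sums, and Rgs5 had no reads at any age. The part of these markers in the Mfap2 difference was not tested. Without the 13 cells that had at least 10 CPM of a defining marker of another type, Mfap2 in young against newborn had a log2 fold change of -1.81 (adjusted p = 0.0491 by edgeR). The defining markers included Rgs5 and Myh11 but not Acta2, Tagln, Plvap or Csf1r. They took out 3 newborn cells of experiment 1 and 0 of experiment 2, so this setting cannot show the part of smooth muscle cells or pericytes.

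Mfap5 had its higher values in adults. It had 17.7 and 214 CPM in newborn, 1534 and 1165 CPM in young sums, and 893 and 1648 CPM in old sums. Both newborn values lay below all 4 adult values, but they lay far apart from each other, and 1 cell held 54.9% of the newborn reads in experiment 1 and 25.5% in experiment 2. Young was 11.6-fold above newborn (log2 fold change 3.54 ± 1.19, adjusted p = 0.301) and old 11-fold above newborn (3.46 ± 1.19, adjusted p = 0.269), each in 9 of 9 plates, and neither passed edgeR. DESeq2 gave adjusted p = 0.00491 and 0.00579. Old and young sums overlapped, with old higher in 4 of 9 plates.

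The share of cells with a Mfap5 read was 5.06 and 13.2% in newborn (exact 95% intervals 2.21 to 9.73% and 7 to 21.9%), 78.9 and 79.8% in young cells, and 72.2 and 88.6% in old cells. These intervals treat cells as independent and cover counting error only, and the difference in share between ages was not tested. Per length, Mfap5 took 0.144 and 2.05% of Mfap2 plus Mfap5 in newborn, 30.2 and 29.1% in young sums, and 28 and 45.0% in old sums, so Mfap2 stayed the higher of the pair at every age. In newborn cells Mfap5 came almost always with Mfap2: of 8 newborn cells with Mfap5 reads in experiment 1, 7 also had Mfap2 reads, and of 12 in experiment 2 all had them, when 98.7 and 98.9% of newborn cells had Mfap2 in any case.

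Mfap4 encodes a fibrinogen-domain glycoprotein that binds microfibrils and elastin. It had 1944 and 1443 CPM in newborn, 1561 and 760 CPM in young sums, and 1569 and 1013 CPM in old sums. The ages overlapped. No comparison passed the test, with log2 fold changes of -0.55 ± 0.43 for young against newborn, -0.39 ± 0.43 for old against newborn and 0.15 ± 0.43 for old against young (adjusted p = 0.697, 0.789 and 1 by edgeR). It was lower in experiment 2 at every age. Mfap4 was also uneven among cells: 59.5 and 59.3% of newborn, 50.0 and 42.3% of young cells, and 57.1 and 49.1% of old cells had a read, and over all reads of each cell those with a read had a median of 1164 to 2161 CPM. The exons of Mapk7 lie opposite those of Mfap4, and without a stated strand setting their reads cannot be told apart. Mapk7 was listed at 0.0948 to 25.3 CPM, far below Mfap4.

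Fibulins bridge elastin and microfibrils. Efemp1, which encodes fibulin-3, had 137 and 178 CPM in newborn, 3566 and 4929 CPM in young sums, and 4674 and 5065 CPM in old sums. Every adult sum was above every newborn sum, and the old and young values overlapped. Young was 27.0-fold above newborn (log2 fold change 4.75 ± 0.28, adjusted p = 0.00990) and old 30.9-fold above newborn (4.95 ± 0.28, adjusted p = 0.00867), each in 9 of 9 plates. The replicate block kept both past the threshold (adjusted p = 0.0372 and 0.0250). With 1 sum left out in turn, young against newborn had adjusted p = 0.0522 to 0.0807 and missed it each time. Old against newborn held without newborn experiment 2 or young experiment 2 (adjusted p = 0.04997 and 0.0485) and missed it without newborn, young or old experiment 1 or old experiment 2 (adjusted p = 0.0612, 0.0504, 0.0926 and 0.104), while log2 fold changes over all these fits stayed between 4.50 and 5.16.

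Both the share of cells with a read and the level among those cells were higher in adults. At 100000 reads per cell, Efemp1 reads were in 17.1 and 19.8% of newborn cells (exact 95% intervals 11.6 to 23.9% and 12.2 to 29.4%), in 95.1 and 94.2% of young and in 91.3 and 93.9% of old cells. Among these cells the median was 700 and 730 CPM in newborn, 2690 and 3915 CPM in young cells, and 3930 and 4590 CPM in old cells, without TMM scaling. Over all reads of each cell, where 34 and 27 newborn cells had a read, the median was 352 and 267 CPM in newborn, 2980 and 4357 CPM in young cells, and 4252 and 4948 CPM in old cells. The 10% of cells with the most Efemp1 held 91.8 and 89.2% of its newborn reads but 31.7 to 35.9% of its adult reads. Of 8 newborn cells with Mfap5 in experiment 1, 3 also had Efemp1, and of 12 in experiment 2, 4 had it, when 27 of 158 and 18 of 91 newborn cells had Efemp1 in all. The endothelial and immune marker sums given above were higher in adult than in newborn sums too, as Efemp1 and Mfap5 were, and the part of Plvap and Csf1r in these differences was not tested.

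**Figure D3:**
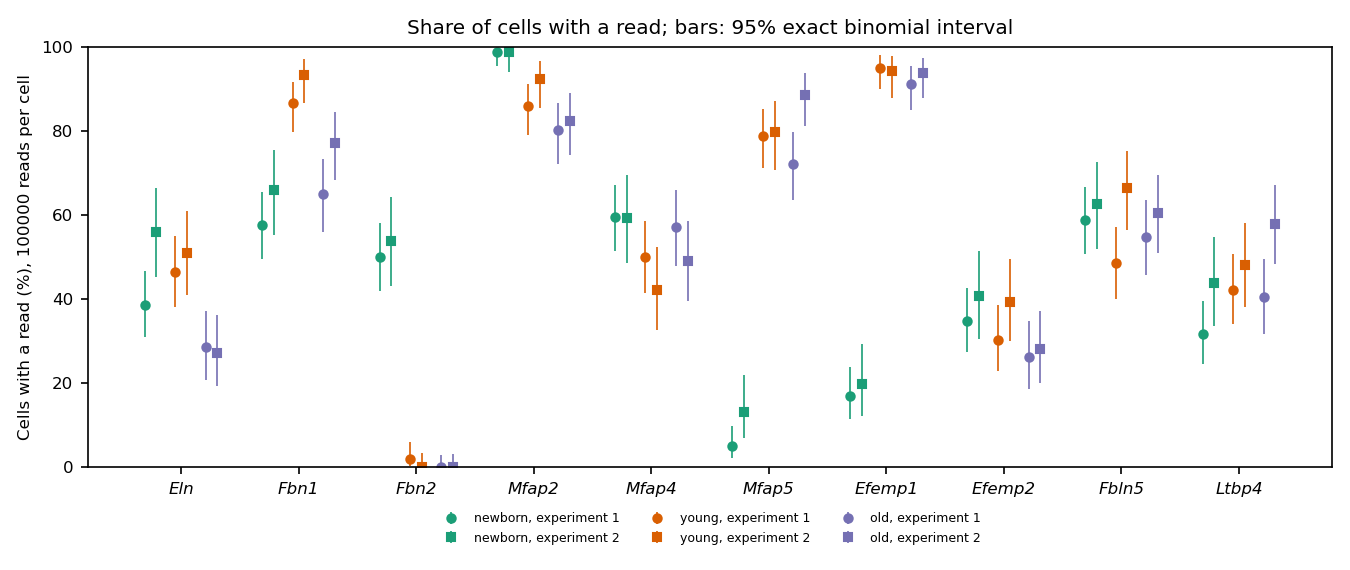
Share of cells with a read (percent, each cell thinned to 100000 reads) for each gene, age and experiment, with exact 95% binomial intervals as bars. Fbn2 is read in 50.0 and 53.8% of newborn and at most 2.11% of adult cells, and Mfap5 and Efemp1 in at most 19.8% of newborn and at least 72.2% of adult cells.

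Efemp2 and Fbln5 encode fibulin-4 and fibulin-5, which in mice are needed to assemble elastic fibres, and Ltbp4 encodes a binding protein that works with fibulin-5. Efemp2 had 164 and 127 CPM in newborn, 153 and 148 CPM in young sums, and 167 and 143 CPM in old sums, with overlap throughout. Its log2 fold changes lay between 0.04 and 0.09 with an SE of 0.24, and scaling by library size alone turned the young and old differences from newborn to -0.38 and -0.27. The share of cells with an Efemp2 read was 34.8 and 40.7% in newborn, 30.3 and 39.4% in young cells, and 26.2 and 28.1% in old cells. Mus81, whose exons lie opposite, had 3.08 to 9.60 CPM.

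Fbln5 had 518 and 589 CPM in newborn, 478 and 706.9 CPM in young sums, and 656 and 781 CPM in old sums. Old was above newborn in both experiments and in 9 of 9 plates, by 1.30-fold, which did not pass the test (log2 fold change 0.38 ± 0.26, adjusted p = 0.596) and shrank to a log2 fold change of 0.02 when scaled by library size alone. The share of cells with a read was 58.9 and 62.6% in newborn, 48.6 and 66.3% in young cells, and 54.8 and 60.5% in old cells, so more cells had Fbln5 in experiment 2 at each age. The 3 fibulins thus differed in pattern: per length, Efemp1 was 47.2 and 50.7% of Efemp1 plus Fbln5 in newborn sums and 95.7 to 96.2% in adult sums.

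Ltbp4 had 99.8 and 103 CPM in newborn, 170 and 148 CPM in young sums, and 161 and 237 CPM in old sums. Both adult ages lay above newborn without overlap, old by 1.97-fold (log2 fold change 0.97 ± 0.28, adjusted p = 0.217) and young by 1.57-fold (0.65 ± 0.28, adjusted p = 0.413), each in 8 of 9 plates. Neither passed edgeR, and DESeq2 gave adjusted p = 0.00539 for old against newborn. Ltbp4 reads were in 31.6 and 44.0% of newborn, 42.3 and 48.1% of young cells, and 40.5 and 57.9% of old cells.

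Eln encodes tropoelastin, the soluble unit of the fibre core. It had 143 and 229 CPM in newborn, 163 and 187 CPM in young sums, and 87.3 and 81.8 CPM in old sums. Newborn and young overlapped, and both old values lay below all others. Old averaged 84.6 ± 3.89 CPM and young 175 ± 17.6 CPM (SD, n = 2 each), 2.07-fold lower in old (log2 fold change -1.05 ± 0.31, adjusted p = 0.906), lower in 7 of 9 plates. Against newborn sums old was 2.20-fold lower (-1.14 ± 0.31, adjusted p = 0.210) and lower in 8 of 9 plates. Neither passed edgeR, while DESeq2 gave adjusted p = 0.0223 for old against young and 0.00388 for old against newborn.

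Eln reads were in 38.6 and 56.0% of newborn, 46.5 and 51.0% of young cells, and 28.6 and 27.2% of old cells. Among these cells the median was 320 and 240 CPM in newborn, 235 and 200 CPM in young cells, and 250 and 200 CPM in old cells, without TMM scaling. Over all reads of each cell, the median of cells with a read was 226 and 176 CPM in newborn, 253 and 212 CPM in young cells, and 251 and 194 CPM in old cells. The number of genes detected per cell was also lowest in old cells, and its part in the lower share was not tested. Efemp2 and Ltbp4 had levels near that of Eln in young sums and, like Eln, did not pass edgeR in any comparison. Their shares went different ways. Efemp2 had 26.2 and 28.1% of old and 30.3 and 39.4% of young cells with a read. Ltbp4 had 40.5 and 57.9% of old and 42.3 and 48.1% of young cells with a read.

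**Figure D4:**
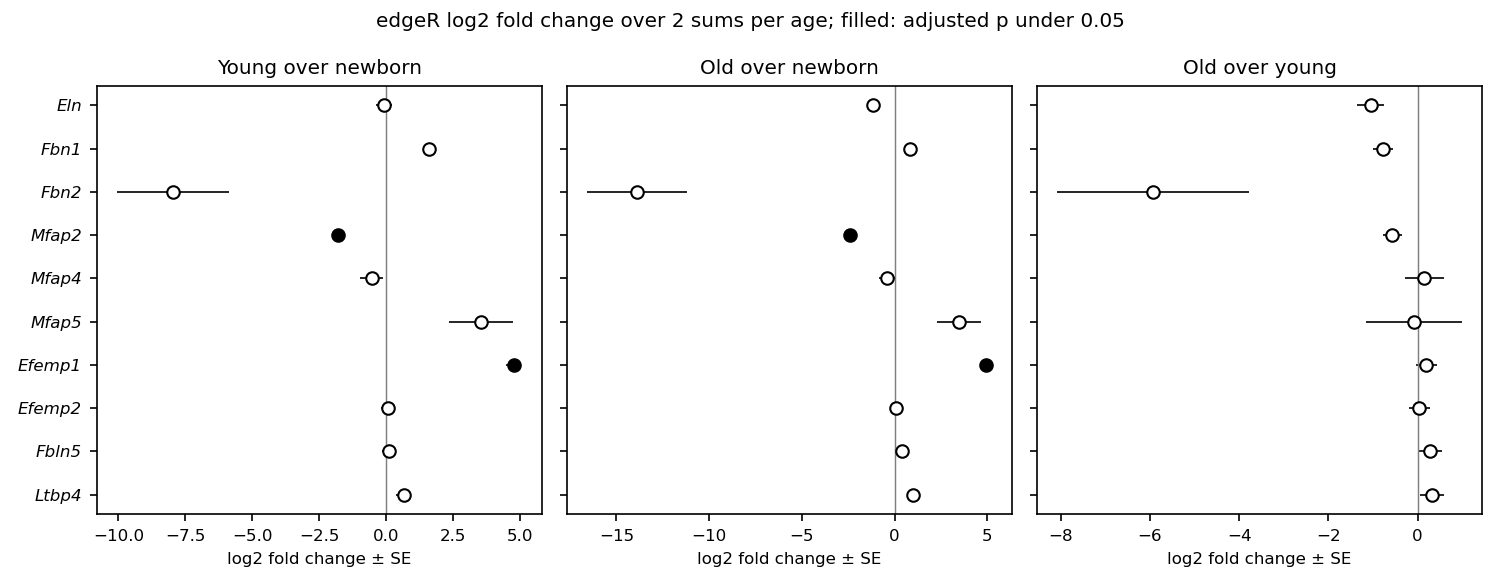
edgeR log2 fold change of each gene with its standard error, for young over newborn, old over newborn and old over young (2 sums per age, each panel with its own axis), with filled points where the adjusted p is under 0.05. Efemp1 at 4.75 and 4.95 and Mfap2 at -1.81 and -2.38 are the filled points, and no point is filled for old over young. The fitted values of Fbn2 depend on the prior count, since its adult sums are at or near 0.

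Scaling bears on the smaller differences. TMM factors were 1.20 and 1.19 for newborn, 0.906 and 0.880 for young and 0.95 and 0.921 for old sums, and the median log2 fold change over all genes was -0.07 for young and -0.08 for old against newborn. With library size alone these medians were -0.49 and -0.44, and Efemp1 and Mfap2 passed the test in both comparisons all the same (log2 fold changes 4.33 and 4.59 for Efemp1, -2.24 and -2.74 for Mfap2).

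Together the 10 genes took 7772 and 7068 CPM in newborn, 10417 and 10262 CPM in young sums, and 9738 and 10564 CPM in old sums. Per length the totals were closer, at 4695 and 3966 RPKM in newborn, 4264 and 4223 RPKM in young sums, and 4236 and 4307 RPKM in old sums, with newborn on both sides of the adult values. The order within that total changed. In newborn sums Mfap2 led with 3128 ± 400 RPKM, ahead of Mfap4 at 881 ± 184 RPKM, and the next in order were Fbln5 and Efemp1, which overlapped at 80.1 ± 7.32 and 77.3 ± 14.5 RPKM. In young sums Efemp1 led with 2085 ± 473 RPKM, followed by Mfap2 at 889 ± 137 and Mfap4 at 604 ± 295 RPKM, which overlapped. Mfap5 came next at 376 ± 72.6 RPKM and overlapped Mfap4 but not Mfap2. In old sums Efemp1 led with 2390 ± 136 RPKM, ahead of Mfap4 and Mfap2, which overlapped at 672 ± 205 and 600 ± 55.6 RPKM. Eln was next to last in both adult ages, at 21.6 ± 2.17 RPKM in young sums, where it overlapped Ltbp4, and at 10.4 ± 0.481 RPKM in old sums (SD, n = 2 each).

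Across single cells the 10 genes varied together only weakly. Spearman correlations were computed in thinned cells, within each age and experiment, over genes read in at least 10% of its cells, and the cells of a sum share an age, an experiment and plates. The median over pairs was 0.0458 and 0.0380 for newborn cells (36 and 45 pairs, 158 and 91 cells), -0.00156 and 0.0612 in young (36 pairs each, 142 and 104 cells) and 0.0441 and 0.0367 in old cells (36 pairs each, 126 and 114 cells). Over all pairs of genes at the same detection limit it was 0.00641 to 0.0151, and its 5th and 95th percentiles were -0.158 and 0.198 in the widest of the 6, newborn experiment 2. Single pairs of the 10 genes ran from -0.227 to 0.376, and correlations of this size in sparse counts are given as a description only.

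Of the pairs measured in 5 or 6 sums, a few kept their sign in every one. Fbn2 was measured in the 2 newborn sums alone. There it was negative in both with Eln (-0.128 and -0.175), Mfap2 (-0.0714 and -0.159) and Mfap4 (-0.00160 and -0.0359). It was positive in both with Fbn1, Ltbp4, Efemp1 and Fbln5. Eln and Mfap4 were positive in 6 of 6 sums, at 0.0635 and 0.211 in newborn, 0.271 and 0.370 in young cells, and 0.188 and 0.151 in old cells. Fbn1 and Mfap5 were positive in 5 of 5 sums (0.135 to 0.295), Eln and Fbn1 in 6 of 6 (0.0890 to 0.179), Mfap2 and Mfap4 in 6 of 6 (0.0327 to 0.271) and Mfap5 and Efemp1 in 5 of 5 (0.0757 to 0.222). Mfap4 and Efemp2 were negative in 6 of 6 sums (-0.180 to -0.0478), as were Efemp1 and Ltbp4 (-0.0881 to -0.00701), and Mfap5 and Ltbp4 in 5 of 5 (-0.155 to -0.0109). With Pearson correlation on log values centred within plates, Eln and Mfap4 stayed positive in 6 of 6 sums with a median of 0.172, and Fbn1 and Mfap5 in 5 of 5 with a median of 0.197. Eln and Fbn1 stayed positive and Mfap4 and Efemp2 negative in 6 of 6 sums there. In that setting Mfap2 and Mfap4 were positive in 5 of 6 sums, and Mfap5 and Efemp1 in 4 of 5. Efemp1 and Ltbp4 were negative in 5 of 6 sums and Mfap5 and Ltbp4 in 4 of 5, and both had 1 positive sum also with Pearson correlation and without cells bearing markers of other types, as Efemp1 and Ltbp4 had with unthinned cells.

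The pair of Mfap4 and Efemp1 differed in sign between ages. Its correlation was 0.151 and 0.243 in newborn, -0.159 and -0.180 in young cells, and -0.192 and -0.227 in old cells. The 4 adult sums were all negative and both newborn sums positive, also with unthinned cells and without cells bearing markers of other types. With Pearson correlation the signs were the same, but young experiment 1 was at -0.000266, and at -0.00289 with plate centring. In newborn cells, 20 of 27 cells with Efemp1 in experiment 1 and 14 of 18 in experiment 2 also had Mfap4, against 94 of 158 and 54 of 91 newborn cells in all. Among young cells with Efemp1, 69 of 135 and 41 of 98 also had Mfap4, against 71 of 142 and 44 of 104 in all. Among old cells with Efemp1 it was 64 of 115 and 52 of 107, against 72 of 126 and 56 of 114 in all. The adult shares thus lay near those over all cells. The difference in sign between ages was seen in these values and was not tested. Mfap4 and Mfap5 were likewise positive at 0.312 in the newborn sum where both could be measured, and -0.210, 0.0360, -0.159 and -0.185 in the adult sums.

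**Figure D5:**
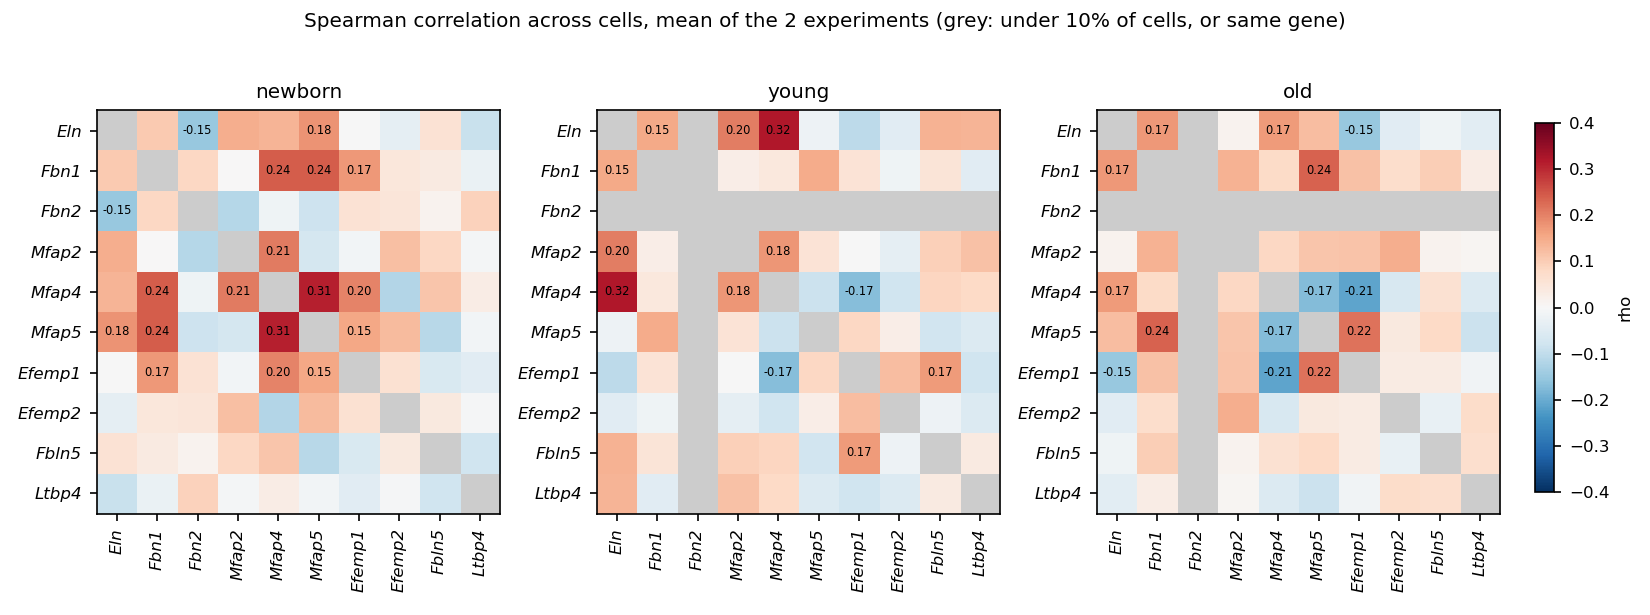
Spearman correlation across thinned cells for each pair of the 10 genes, as the mean of the experiments in which both genes were read in at least 10% of cells, for newborn, young and old cells (grey: not measured, or the same gene; numbers where the size is at least 0.15). Mfap4 with Efemp1 is positive in newborn and negative in young and old cells, and Eln with Mfap4 is positive at every age.

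Among 2894 other genes read in at least 10% of cells of every sum, 3 were named for each member by their correlation with it across cells. The closest to Mfap4 was Bgn, a small leucine-rich proteoglycan, with a median correlation of 0.403 over 6 sums (0.247 to 0.583), followed by Serpinf1 (0.327) and Sparc (0.259). Mfap2 was most like the collagen genes Col1a1 (0.241, lowest 0.141) and Col1a2 (0.231) and Sparc (0.226), and Fbn1 most like Fstl1 (0.274, lowest 0.199), Mmp23 (0.201, lowest -0.0199) and Col1a2 (0.193, lowest -0.0543). Efemp1 was most like Mgst1 (0.305, lowest 0.142), Cd34 (0.234, lowest -0.129), whose product was among the stained markers, and Ly6e (0.217). Mfap5 was most like Tmsb4x (0.341 over 5 sums, lowest 0.113), S100a16 (0.293) and Cd164 (0.254). Fbn2, measured in the 2 newborn sums, was most like Sparc (0.259), Rcn1 (0.253) and Rrbp1 (0.246).

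For the remaining members the likeness was lower, and for most of these genes its sign was not the same in every sum. Eln was most like Col3a1 (0.170, from -0.163 to 0.441), Etf1 (0.154) and Cyp26b1 (0.152), of which Cyp26b1 alone was positive in all 6 sums (lowest 0.0898). Ltbp4 was most like Igfbp5 (0.157, lowest 0.0330), Sparc (0.156) and Col1a2 (0.153, lowest 0.0280). Efemp2 was most like Sh3d19 (0.177), Bud31 (0.172) and 2200002D01Rik (0.172), and Fbln5 most like S100a4 (0.151), Gm42674 (0.150) and Col1a2 (0.146), each with a negative value in at least 1 sum. Efemp2 also correlated with the number of genes detected in a cell, at 0.0724 to 0.362 in all 6 sums, and Fbn1 at 0.0544 to 0.209.

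Around these genes, a list of 32 genes for elastic fibre assembly and crosslinking had 28 tested. In young against newborn sums 0 passed the test in either direction, where 0.719% of all genes were higher and 0.0599% lower. The median log2 fold change was 0.48, against -0.07 over all genes tested. In old against newborn 1 was higher and 0 lower (median 0.23 against -0.08), where 0.797% of all genes were higher and 0.138% lower. In old against young 0 passed, as 0.0% of all genes did (median -0.28 against 0.00). The gene that passed was Adamtsl5, of the ADAMTS-like family of fibrillin-binding proteins, with 86.3 and 128 CPM in old and 10.1 and 14.6 CPM in newborn sums (adjusted p = 0.0446, 0.0907 with the replicate block, and 0.141 to 0.191 with any 1 of the 6 sums left out).

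The genes of that list with the highest mean CPM did not pass. Bgn had 1032 and 1272 CPM in newborn, 1349 and 1374 CPM in young sums, and 738 and 1112 CPM in old sums. Fn1, the fibronectin gene, had 591 and 474 CPM in newborn, 1320.4 and 1410 CPM in young sums, and 873 and 2001 CPM in old sums (adjusted p = 0.270 for young and 0.225 for old against newborn). Fbln1, another fibulin, had 143 and 150 CPM in newborn, 356 and 310 CPM in young sums, and 421 and 423 CPM in old sums, with adjusted p = 0.0993 for young against newborn, and 0.0346 over the genes read in at least 10% of cells. Lox, the lysyl oxidase that crosslinks elastin, was picked out after its values were seen. It had 311 and 477 CPM in newborn, 89.5 and 236 CPM in young sums, and 47.3 and 26.1 CPM in old sums, and its adjusted p was 0.117 for old against newborn.

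Of 19 listed elastin-degrading proteases and their inhibitors, 11 were tested, and in both adult ages 2 were higher and 0 lower than in newborn, where 0.719% of all genes were higher in young and 0.797% in old sums. The median log2 fold change was 1.47 for young and 1.50 for old against newborn, against -0.07 and -0.08 over all genes tested. Ctsk, which encodes the collagen- and elastin-degrading cathepsin K, had 304 and 361 CPM in newborn, 2488 and 2749 CPM in young sums, and 1521 and 1353 CPM in old sums. It rose in young (log2 fold change 2.98 ± 0.20, adjusted p = 0.0105) and in old against newborn (2.11 ± 0.20, adjusted p = 0.0233). Timp2, a metalloproteinase inhibitor, had 166 and 172 CPM in newborn, 783 and 916 CPM in young sums, and 945 and 1138 CPM in old sums. It rose too, by 2.33 ± 0.21 (adjusted p = 0.0243) and 2.62 ± 0.21 (adjusted p = 0.0183). The replicate block put Ctsk outside the threshold in both comparisons (adjusted p = 0.0505 and 0.0646) and Timp2 in young against newborn (adjusted p = 0.0505), and with any 1 of the 6 sums left out both genes missed it in both (adjusted p = 0.0522 to 0.163).

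Ctsb, a lysosomal cathepsin with the highest CPM of the list averaged over the 3 ages (though Ctsk was higher in young and Ctsl in old sums), had 1189 and 807 CPM in newborn, 2125 and 2564 CPM in young sums, and 1917 and 2015 CPM in old sums, and did not pass (adjusted p = 0.155 and 0.201, and 0.0363 for young over the genes read in at least 10% of cells). In old against young sums 0 of the 11 passed, and the 3 of the highest mean CPM had log2 fold changes of -0.25 ± 0.25 for Ctsb, -0.07 ± 0.37 for Ctsl and -0.87 ± 0.19 for Ctsk. The macrophage and neutrophil elastases Mmp12 and Elane had no reads in any sum.

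Of 19 growth factors, receptors and integrins that bind or act at microfibrils, 16 were tested. In young against newborn 2 were higher and 0 lower, with 0.719% of all genes higher (median log2 fold change 0.77 against -0.07 over all genes). In old against newborn 1 was higher and 0 lower, with 0.797% of all genes higher (median 0.56 against -0.08), and in old against young 0 passed (median -0.26 against 0.00). Itgb5, an integrin subunit, had 195 and 185 CPM in young sums, and 43.5 and 50.3 CPM in newborn sums (log2 fold change 2.02 ± 0.24, adjusted p = 0.0456). Bmp5, a bone morphogenetic protein, had no read in either newborn sum, 30.7 and 30.9 CPM in young sums, and 11.2 and 27.0 CPM in old sums. Set against 3 reads, the floor over both newborn sums, the mean was 3583-fold higher in young and 2226-fold higher in old (adjusted p = 0.0469 and 0.0446 by edgeR). That floor covers counting error only and not the spread between cells, so these folds are not firm lower bounds. With the replicate block Itgb5 had adjusted p = 0.0932 and Bmp5 0.169 and 0.159, and leaving out any 1 of the 6 sums gave 0.109 to 0.253 for both, all outside the threshold.

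Tgfbr2, a TGF-beta receptor, had 62.6 and 117 CPM in newborn, 711.2 and 661 CPM in young sums, and 622 and 768 CPM in old sums, just outside the threshold (adjusted p = 0.0555 and 0.0512), and inside it over the genes read in at least 10% of cells (0.00491 and 0.00401). Itgb1, the integrin beta-1 subunit, had 285 and 191 CPM in old and 304 and 355 CPM in newborn sums (adjusted p = 0.593). In old against young, Tgfbr2, Itgb1 and Tgfbr3 had log2 fold changes of 0.02 ± 0.35, 0.17 ± 0.33 and 0.26 ± 0.34.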

How the data were processed

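Single dermal fibroblasts were sequenced with Smart-seq2, and the raw read counts per gene and cell were deposited by the authors as 11 plate tables. GRCm38 and FastQC are named per the submitters' processing notes; the aligner, counting program and strand setting were not given in the sources used here. All counts were whole numbers, and 75.2% of counts above 0 were even. Of 1049 columns, 5 held no values and were not used. In 2 pairs of plates wells correlated at a median of at least 0.995 (0.372 at most for other pairs), and their reads were added as 2 runs of 1 plate (183 wells).

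Cells were kept at 50000 or more reads, 1000 or more detected genes and a mitochondrial share of 25% or less, which left out 126 wells. No doublet caller was run on these singly sorted cells. Identifiers were matched to GENCODE M21 (51633 genes, 144 unmatched), which gave symbols and exon lengths. Promoters came from RefSeq, with a window printed or counted for 6 of the 10 genes. For shares and correlations each cell was thinned to 100000 reads. Intervals and floors (3 reads) cover counting error only.

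The 6 sums were fitted with edgeR 4.0.16 in R 4.3.3 (TMM, filterByExpr, robust quasi-likelihood, age as the only term). DESeq2 1.42.0 and limma 3.58.1 on the mean log2(CPM + 1) per cell (6951 genes read in at least 10% of cells) were alternatives, as was edgeR over those genes, with thinned cells and with other scalings and filters. The edgeR code was also checked on simulated counts with known changes. Experiment is a batch that the labels give to every age, so the block is paired by it; deviations of same-numbered sums correlated at -0.00017 (young and newborn), 0.0107 (old and newborn) and 0.0125 (old and young). The named genes were all 10 members in every comparison and, of each other list, those past the threshold, filled up to 3 by level. Members and lists were chosen with earlier results of these data known.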

Additional observations from a re-analysis of the deposited data

Results flagged for a closer look

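The plates of each age and experiment (4 or 5 plates) were searched for 1 plate that stood far from the others, by Dixon's criterion at the 95% level. Of 59 groups of plates over the 10 genes, 3 held such a plate, and chance flags about 1 in 20 groups. For Mfap2 in young cells of experiment 1, the lowest of 5 plates had 793 CPM, against 1318 to 1369 CPM in the others. For Mfap5 in newborn cells of experiment 1, the highest of 5 plates had 50.3 CPM, against 2.76 to 10.8 CPM in the others. For Ltbp4 in old cells of experiment 2, the highest of 4 plates had 382 CPM, against 172 to 182 CPM in the others. In none of 30 combinations of gene and age comparison did all plates of experiment 1 go one way and all plates of experiment 2 the other.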

How the results depend on the processing

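Of the 10 genes, 2 passed the test in young against newborn and 2 in old against newborn. Of all genes, 0.779% and 0.935% passed. DESeq2 gave 5 and 7, where it called 14.1% and 17.0% of all genes. With limma on the mean log2 value per cell it was 5 and 5, where 19.6% and 26.3% passed. Leaving out any 1 of the 6 sums leaves an age with 1 sum, and most calls of members were lost. In these fits log2 fold changes were 4.50 to 4.97 for Efemp1 and -1.98 to -1.66 for Mfap2 in young against newborn. In old against newborn they were 4.77 to 5.16 and -2.50 to -2.25. Over the genes read in at least 10% of cells edgeR gave 3 and 3, where it called 7.06% and 7.87% of all genes in either direction, and with thinned cells 3 and 2, where it called 1.95% and 2.27%. In young against newborn the replicate block, no filter on cells and the first run alone each gave 1. They called 0.15%, 0.729% and 0.785% of all genes. In old against young DESeq2 gave 3, where it called 6.28% of all genes, and edgeR gave 0, where it called 0.0%. Over all genes, DESeq2 put 1345 higher and 1013 lower in young than in newborn sums, edgeR 120 and 10, and edgeR with the replicate block 24 and 1. In old against newborn the counts were 1436 and 1392, 133 and 23, and 46 and 5. The median correlation over pairs in old cells was 0.0404, and 0.0532 with Pearson correlation, 0.0480 with cells not thinned and 0.0348 without cells bearing markers of other types.

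Of single calls, Mfap2 in young against newborn had adjusted p = 0.0520 with no filter on cells and 0.0608 with the first run alone. Itgb5, Bmp5 and Adamtsl5 also lost their calls when scaled by library size alone (adjusted p = 0.0848 for Itgb5, 0.0597 and 0.0551 for Bmp5 in young and old, 0.0640 for Adamtsl5), and Bmp5 and Adamtsl5 with the first run alone (0.0546, 0.0522 and 0.0570).

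Of the genes named, some changed direction under an alternative, and none of those reversed values passed the test. Scaling by library size alone, added after seeing the data, gave -0.377 for Efemp2, -0.328 for Fbln5 and -0.182 for Bgn in young against newborn, -0.266 for Efemp2 in old against newborn and 0.000222 for Ctsl in old against young. With limma the values were -0.298 for Efemp2 and -0.413 for Fbln5 in young against newborn, -0.736 and -0.288 in old against newborn, and 0.179 for Mfap5, -0.438 for Efemp2, -0.216 for Fn1, -0.206 for Tgfbr2 and -0.472 for Itgb1 in old against young. Also in old against young, the first run alone gave 0.0315 for Mfap5 and -0.0553 for Efemp2, thinned cells -0.0151 for Efemp2 and -0.0382 for Fn1, the replicate block -0.00853 for Tgfbr2, and leaving out cells with markers of other types -0.0218 for Efemp2. With each of the 6 sums left out in turn, values in young against newborn ran from -0.390 to 0.295 for Eln, -0.120 to 0.239 for Efemp2 and -0.209 to 0.355 for Fbln5, and in old against newborn from -0.0775 to 0.281 for Efemp2. In old against young they ran from -0.277 to 0.764 for Mfap4, -0.598 to 0.273 for Mfap5, -0.0176 to 0.447 for Efemp1, -0.0861 to 0.146 for Efemp2, -0.648 to 0.536 for Fn1, -0.271 to 0.169 for Ctsl, -0.146 to 0.146 for Tgfbr2, -0.157 to 0.496 for Itgb1 and -0.0812 to 0.698 for Tgfbr3. The cause was not tested. The replicate block ended the calls named beside their results and no other among the genes named. With n = 2 per age, single-cell shares rest on 91 to 158 cells.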
